A study of Arabidopsis thaliana with 64 samples.

Results

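The libraries compared here are the 28 days after sowing (DAS) leaf libraries of 4 hybrid mimic lines of Arabidopsis thaliana, 2 of the L1 family (L1-1 and L1-2) and 2 of the L2 family (L2-1 and L2-2). They were chosen by their labels alone, as 4 L1 against 4 L2 libraries, and are 8 of the 64 libraries of the series. All 4 lines are F4 lines derived from the F1 hybrid of the accessions C24 and Landsberg erecta (Ler), and lines whose names share the first part are called a family, or sister lines, here. Each library is a pool of 5 plants, with 2 pools (A and B) per line, and holds RNA of the 4 largest leaves. The plants grew untreated in the first of 2 growth batches, together with C24, Ler and the C24xLer F1, which serve here as references with 2 pools each. Growth was at 22 °C by day and 18 °C by night with 16 h of light and 8 h of dark, and the plants moved to soil at 18 DAS. The 15 DAS libraries of the same lines, also 2 pools per line, hold the aerial tissue of seedlings.

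An F1 hybrid carries an allele of each parent at every locus, and selfing then fixes one or the other over segments of each chromosome, so that lines from the same F1 can differ over long segments. Hybrid mimics are selfed descendants selected for growth like that of the F1. Accessions of Arabidopsis are known to differ strongly in clustered genes of defence, among them the nucleotide-binding leucine-rich repeat (NLR) receptors that detect pathogens and the genes of glucosinolate metabolism, which make and break down the mustard oil precursors of Brassicaceae leaves.

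Counted reads per library ran from 47737328 in L2-1 pool B to 181557451 in L1-1 pool A, with 28974 to 30184 genes detected. The p-values measure the spread between pools of a line, not between lines of a family. Reads were mapped to the Columbia reference, so that a low level cannot be told apart from a poor match of a parental allele to that reference. In leaf pools, fewer cells of a type and less RNA per cell cannot be told apart. Levels are given in CPM, the reads of a gene scaled to a common library size, and differences as log2 fold changes of L1 against L2 with the standard error (SE) of the fit. A gene was called where edgeR's quasi-likelihood test gave a p below 0.05 after Benjamini-Hochberg (BH) adjustment across the 27844 genes tested.

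L1 and L2 leaves differed in 1099 genes, 554 higher in L1 and 545 lower, which is 3.95% of the genes tested (1.99% higher and 1.96% lower). The median log2 fold change was 1.1 among the higher and -1.33 among the lower genes, and 652 of the calls exceeded 1 in size. Over all tested genes the median was 0.01. The 4 L1 libraries lay wholly above or wholly below the 4 L2 libraries in 2819 genes (10.1% of those tested), and 899 of these were called, 447 higher and 452 lower. A stricter set passed the test in one direction in each of the 4 pairs of an L1 with an L2 line. It held 199 genes (0.715%), 58 higher in L1 (0.208%) and 141 lower (0.506%). Among single pairs the calls numbered 405 for L1-1 against L2-1 (1.45%), 367 for L1-2 against L2-1 (1.32%), 644 for L1-1 against L2-2 (2.31%) and 556 for L1-2 against L2-2 (2.0%). Sister lines differed in fewer genes, 54 between L1-1 and L1-2 (0.194%) and 100 between L2-1 and L2-2 (0.359%). When the 4 libraries of a family formed a single group, the spread between sister lines entered the error and 1021 genes were called (3.67%). Of these, 928 were among the 1099, and pools of a line still counted as separate replicates in that fit. With the pools of each line summed, so that the line was the unit, 304 genes were called, among them 232 of the 1099 (21.1%) and 130 of the 199 (65.3%).

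The leaf levels of the myrosinases TGG1 and TGG2, the enzymes that cleave glucosinolates when tissue is wounded, separated the families in opposite directions. TGG2 (AT5G25980, chr5:9072708-9075777) and TGG1 (AT5G26000, chr5:9079452-9082384) lie 3674 bases apart and are transcribed towards each other, in the RefSeq annotation of the build TAIR10.1. The 250 bases before each annotated start are shown because the pair differs between the families in opposite directions. Capitals mark the letters TATAAA, searched on both strands.
TGG2, chr5:9072458-9072707, plus strand: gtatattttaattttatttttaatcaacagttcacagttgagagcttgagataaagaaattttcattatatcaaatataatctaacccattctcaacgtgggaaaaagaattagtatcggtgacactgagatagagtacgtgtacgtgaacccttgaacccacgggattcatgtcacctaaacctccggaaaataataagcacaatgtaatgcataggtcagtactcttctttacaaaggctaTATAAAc
TGG1, chr5:9082385-9082634, minus strand: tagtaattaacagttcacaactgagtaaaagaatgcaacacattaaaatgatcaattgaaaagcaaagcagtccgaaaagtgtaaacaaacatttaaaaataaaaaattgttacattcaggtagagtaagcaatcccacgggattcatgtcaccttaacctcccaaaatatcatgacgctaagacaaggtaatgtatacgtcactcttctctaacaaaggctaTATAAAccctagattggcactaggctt
These windows share a run of 21 bases, cccacgggattcatgtcacct. A match to TATAAA was found in 44.6% of 37897 windows taken the same way before annotated starts.

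TGG2 stood at 10.2 and 9.69 CPM in the pools of L1-1 and at 9.50 and 7.67 CPM in those of L1-2. It stood at 694 and 523 CPM in L2-1 and at 1410 and 989 CPM in L2-2. All L1 pools were near the bottom of the scale and no L2 pool came close to them. The log2 fold change was -6.53 (SE 0.20, edgeR BH-adjusted p = 5.54e-13). C24 pools held 1890 and 1830 CPM, Ler pools 2.57 and 3.97 CPM and F1 pools 900 and 820 CPM, so that the L1 lines sat at the level of Ler and the L2 lines between the parents.

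TGG1 stood at 4410 and 3990 CPM in L1-1, 3870 and 4290 CPM in L1-2, 2370 and 2100 CPM in L2-1, and 2650 and 1990 CPM in L2-2. The families did not overlap, and L1 was the higher one. The log2 fold change was 0.86 (SE 0.14, edgeR BH-adjusted p = 0.00102), and the gene was called in every line pair. Here Ler was the lower parent, at 1420 and 1170 CPM against 3650 and 3630 CPM in C24, and the F1 pools held 3260 and 3380 CPM.

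A second neighbouring pair of glucosinolate genes, AOP3 and AOP2 on chromosome 4, also moved in opposite directions. Both encode 2-oxoglutarate-dependent dioxygenases that modify the side chain of aliphatic glucosinolates, AOP2 towards alkenyl and AOP3 towards hydroxyalkyl forms. AOP3 stood at 1.01 and 2.54 CPM in L1-1, 1.56 and 2.73 CPM in L1-2, 251 and 160 CPM in L2-1, and 311 and 71.8 CPM in L2-2. The L1 pools were all at the level of C24 (1.78 and 1.12 CPM), while the L2 pools were spread around and below the F1 values of 319 and 184 CPM, and all below Ler at 1010 and 854 CPM. The log2 fold change of AOP3 was -6.68 (SE 0.54, edgeR BH-adjusted p = 2.25e-07).

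AOP2 stood at 859 and 755 CPM in L1-1, 947 and 918 CPM in L1-2, 521 and 399 CPM in L2-1, and 406 and 386 CPM in L2-2. Every L1 pool was above every L2 pool, with a log2 fold change of 1.02 (SE 0.18, edgeR BH-adjusted p = 0.00160). C24 held 487 and 609 CPM and Ler 10.4 and 9.70 CPM, so that both L1 lines exceeded the higher parent in these pools. AOP2 is annotated as a pseudogene in the reference accession and AOP3 lies 5251 bases away, and reads of these related genes may be split between them.

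The glucosinolate list held 33 measured genes, with 5 higher in L1, 2 lower and 26 that did not pass the test. The median log2 fold change was 0.25. Over all tested genes 3.95% were called. Before adjustment 12 of the 33 (36.4%) were below 0.05, beside 14.7% of all tested genes. Between the parents 12 of the 33 were called, beside 13.5% of all tested genes. The fold change was positive for 27 of the 33. Without L2-2 pool A, 14 were higher and 2 lower with a median of 0.62, and without L2-2 pool B, 3 were higher and 3 lower with a median of 0.03. Beside TGG1 and AOP2, the higher genes were MYB29, a regulator of aliphatic glucosinolate synthesis, MAM3, a synthase of side-chain elongation, and NSP1, a specifier protein of glucosinolate breakdown. MYB29 stood at 22.3 to 36.4 CPM in L1 pools and at 2.37 to 16.7 CPM in L2 pools, without overlap (log2 fold change 1.63, SE 0.34, edgeR BH-adjusted p = 0.00846). Its level was lower in pool B than in pool A of both L2 lines. The call was lost in 5 of 21 alternative settings, among them lines summed, line L1-1 left out and L2-1 pool B left out. MAM1, a related synthase, stood at 202 to 258 CPM in L1 and 250 to 429 CPM in L2. It did not pass (log2 fold change -0.62, edgeR BH-adjusted p = 0.0695), an outcome kept in 17 of 21 alternative settings.

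**Figure D1:**
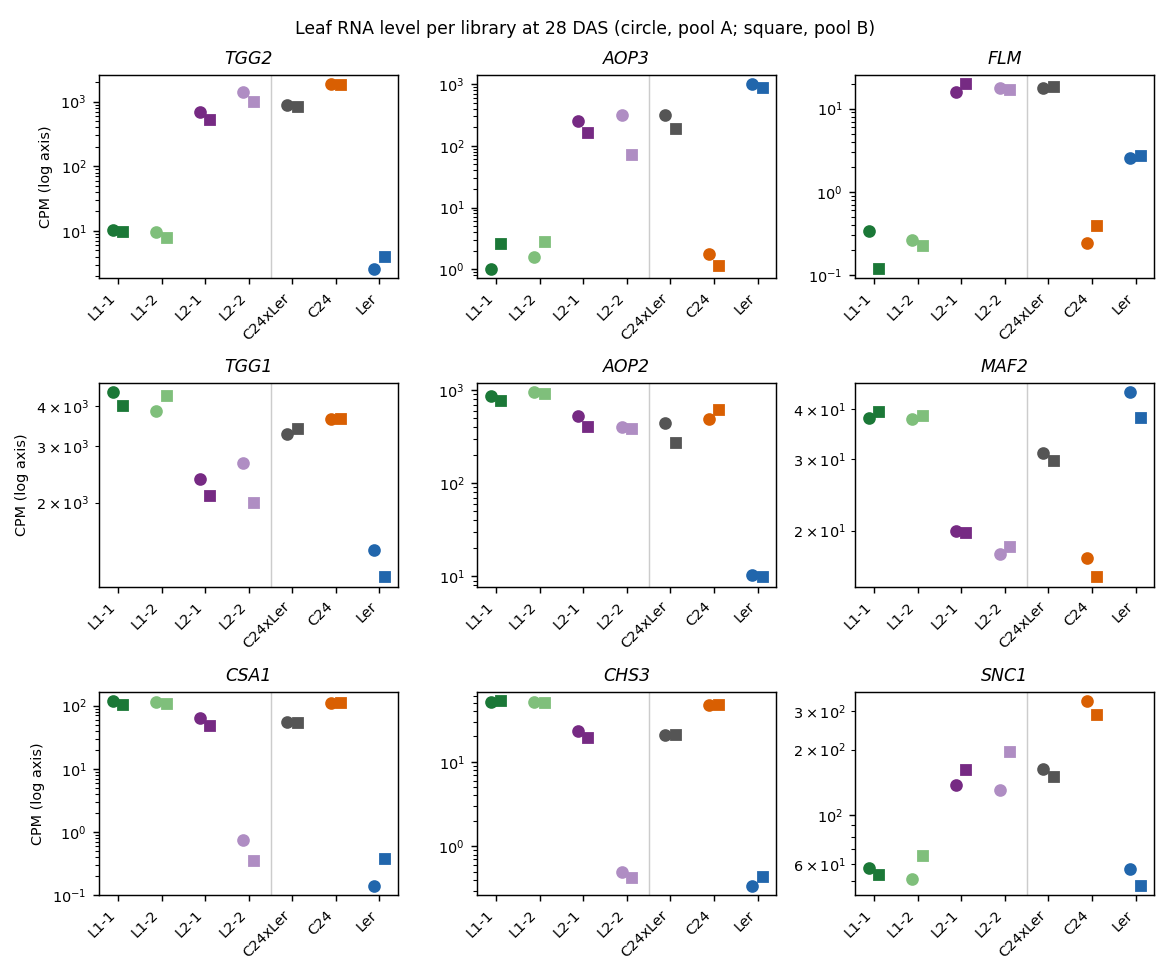
Leaf level per library at 28 DAS in CPM on a log axis for 9 genes, with pool A as a circle and pool B as a square, for the 4 lines, the C24xLer F1 and the parents. TGG2, AOP3, FLM and SNC1 are lower in both L1 lines than in both L2 lines, TGG1, AOP2 and MAF2 are higher, and CSA1 and CHS3 are low in L2-2 and intermediate in L2-1.

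Flowering regulators of the FLC family also separated the families. FLM (AT1G77080, also MAF1), a MADS-box repressor of flowering, stood at 0.333 and 0.118 CPM in L1-1 and 0.265 and 0.222 CPM in L1-2. It stood at 15.8 and 19.9 CPM in L2-1 and 17.8 and 16.6 CPM in L2-2. The 4 L2 pools were close together and far above all L1 pools (log2 fold change -6.15, SE 0.55, edgeR BH-adjusted p = 8.08e-07). Neither parent reached the level of L2, with 0.240 and 0.383 CPM in C24 and 2.57 and 2.72 CPM in Ler, whereas the F1 pools held 17.8 and 18.0 CPM. The log2 fold change against the F1 was -0.03 for L2 and -6.18 for L1, 2 contrasts that share the F1 libraries.

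MAF2, a paralogue of FLM that delays flowering after short cold spells, moved the other way. It stood at 37.9, 39.3, 37.8 and 38.4 CPM in L1 and between 17.5 and 19.9 CPM in L2, a log2 fold change of 1.03 that held in every line pair. L1 pools were near Ler (44 and 38 CPM) and L2 pools near C24 (17.1 and 15.3 CPM). MAF3, MAF4 and MAF5, further paralogues, had log2 fold changes of -0.18, -0.16 and -0.22 and did not pass the test.

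FLC, the central repressor of flowering in Arabidopsis, divided the L2 sisters rather than the families. It stood at 61.4, 53.4, 65 and 49 CPM in the L1 pools, at 52.0 and 42.3 CPM in L2-1 and at 10.7 and 11.9 CPM in L2-2. Pools of L1 and L2-1 overlapped, and the sister difference of L2-1 against L2-2 was 2.06 on the log2 scale (edgeR BH-adjusted p = 0.000217). The family difference of 1.31 was called, but not without line L2-2, nor with the sister spread in the error. The antisense locus AT5G01675 covers 6067 bases of FLC, and the handling of strand in the counting is not given in the sources used here.

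SOC1, a floral activator that FLC represses, stood at 14.6 to 32.9 CPM in L1 and 21.5 to 55.2 CPM in L2 (log2 fold change -0.85), with overlap. Its call was lost in 8 of 21 alternative settings, among them the sister spread in the error (edgeR BH-adjusted p = 0.0794), each of L1-1, L1-2 and L2-1 pool A left out, and line L2-2 left out. FRI, an activator of FLC, was higher in L1, at 7.14 to 8.13 CPM against 5.10 to 5.51 CPM, without overlap (log2 fold change 0.56, edgeR BH-adjusted p = 0.00271). FT, the mobile floral signal, stood at 0.719 to 6.12 CPM in L1 and 2.93 to 15.2 CPM in L2. It did not pass the test (edgeR BH-adjusted p = 0.140), an outcome kept in only 15 of 21 alternative settings. Its log2 fold change ran from -2.46 to -0.5 over these settings. Of the 30 flowering genes measured, 4 were higher in L1, 2 were lower and 24 did not pass, with a median of -0.04. Over all tested genes 3.95% were called. Before adjustment 13 of the 30 (43.3%) were below 0.05, beside 14.7% of all tested genes. Between the parents 12 of the 30 were called, beside 13.5% of all tested genes.

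Of immune receptors, 163 genes annotated as NBS-LRR or TIR resistance-type proteins were tested, and 12 were higher in L1 and 30 lower. That is 25.8% of the class beside 3.95% of all tested genes, in a class of which 43.6% differed between the parents beside 13.5% of all genes. Of the 42 called genes, 16 lie on chromosome 1 and 18 on chromosome 5, and 37 were also called between the parents. How the 163 tested members are spread over the chromosomes was not counted. In every line pair 16 passed (9.82% of the class, beside 0.715% of all tested genes), 14 lower and 2 higher in L1. Over all tested genes the calls in every line pair also leaned this way, with 141 lower and 58 higher. This class was taken from the annotation after results were known, and its clustered members resemble each other, so that reads may be split among them.

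SNC1, a TIR-NLR of the RPP5 cluster on chromosome 4 whose gain of function gives constitutive defence, stood at 57.6 and 53.6 CPM in L1-1 and 51.2 and 64.9 CPM in L1-2. It stood at 138 and 162 CPM in L2-1 and 130 and 194 CPM in L2-2, all above L1 (log2 fold change -1.45, SE 0.21, edgeR BH-adjusted p = 0.000218). L1 was at the level of Ler (56.9 and 47.5 CPM), L2 near the F1 (163 and 149 CPM), and C24 higher than both (334 and 288 CPM). The cluster neighbours AT4G16940 and AT4G16960 were lower in L1 by -2.0 and -1.83 on the log2 scale, also in every line pair.

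Among the other receptors lower in L1 in every line pair, AT5G63020 fell from a mean of 52.4 CPM in L2 to 7.03 CPM in L1, AT1G63860 from 26.5 to 3.45 CPM, and AT5G11250 from 32.8 to 10.9 CPM. On chromosome 1, AT1G58602 fell from 116 to 36.9 CPM. The 2 genes higher in L1 were AT5G40060, at 33.9 against 9.0 CPM, and AT5G43730, at 12.4 against 4.40 CPM. AT1G58602 and AT5G43730 overlap another annotated gene on the same strand.

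**Figure D2:**
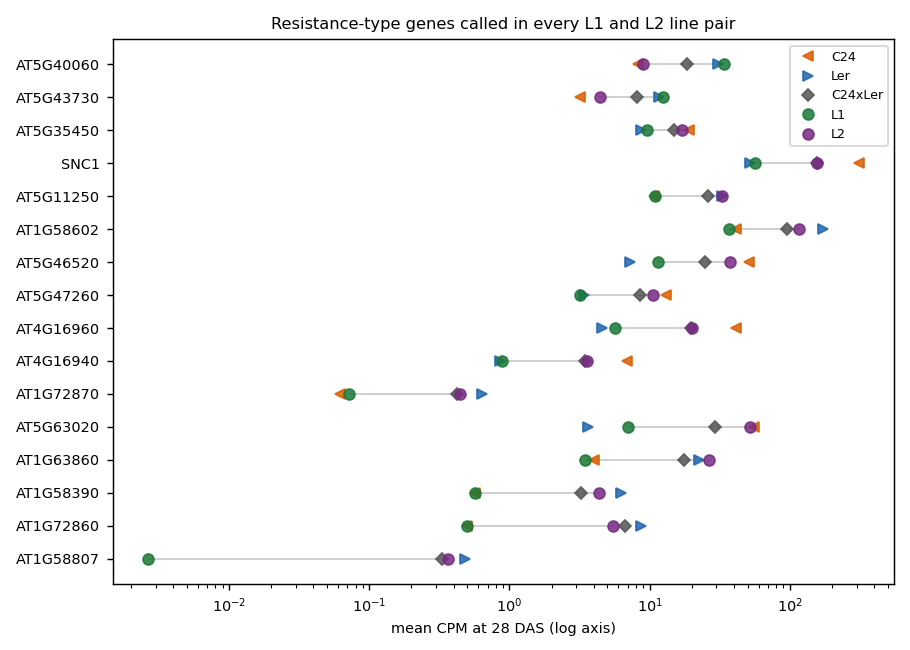
Mean CPM at 28 DAS on a log axis of the 16 resistance-type genes called in every pair of an L1 with an L2 line, for L1, L2, the C24xLer F1 and the parents, with a grey line from L1 to L2. A mean of 0 (C24 in AT1G58807) is not drawn, and L1 lies left of L2 in 14 genes and right of it in 2.

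CSA1 and CHS3 form a head-to-head pair of TIR-NLR genes on chromosome 5 whose products act together, CHS3 (AT5G17890, DA1-related protein 4) being known for chilling-sensitive mutants with active defence. Their annotated starts are 3544 bases apart in TAIR10.1, and the windows before them are shown since both genes moved together. Capitals mark the W-box core TTGAC, read here on the opposite strand as GTCAA, and no match to it or to TATAAA was found in the window of CSA1.
CSA1, chr5:5913318-5913567, minus strand: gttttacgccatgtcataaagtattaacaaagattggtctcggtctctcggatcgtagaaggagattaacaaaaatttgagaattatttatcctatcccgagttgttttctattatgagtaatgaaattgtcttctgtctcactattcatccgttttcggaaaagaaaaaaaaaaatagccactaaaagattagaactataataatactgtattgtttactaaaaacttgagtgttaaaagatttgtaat
CHS3, chr5:5916612-5916861, plus strand: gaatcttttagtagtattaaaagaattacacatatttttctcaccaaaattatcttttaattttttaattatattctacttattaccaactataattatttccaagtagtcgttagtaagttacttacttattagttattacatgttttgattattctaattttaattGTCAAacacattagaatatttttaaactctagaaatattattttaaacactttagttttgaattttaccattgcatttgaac
The W-box core was found in 43.9% of the 37897 windows.

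CSA1 stood at 119 and 102 CPM in L1-1, 115 and 106 CPM in L1-2, 63.9 and 48.4 CPM in L2-1, and 0.74 and 0.35 CPM in L2-2. CHS3 stood at 50.9 and 52.8 CPM, 51.3 and 49.4 CPM, 23.0 and 19.3 CPM, and 0.497 and 0.420 CPM in the same order. In both genes the L1 lines were at the level of C24 (110 and 110 CPM for CSA1), L2-1 was near the F1 (55.4 and 52.4 CPM), and L2-2 was near Ler (0.140 and 0.368 CPM). The families did not overlap, but the sisters L2-1 and L2-2 were also apart. The log2 fold change of L1 against L2 was 4.32 for CSA1 (edgeR BH-adjusted p = 1.74e-09) and 4.04 for CHS3 (1.70e-09), and that of L2-1 against L2-2 was 6.70 and 5.52. With the sister spread in the error the adjusted p was 0.278 for CSA1 and 0.121 for CHS3, so that neither was called.

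The immune receptor list had 10 of 24 measured members (41.7%) below 0.05 before adjustment, beside 14.7% of all tested genes. Between the parents 14 of the 24 were called, beside 13.5% of all tested genes. Over all tested genes 3.95% were called between the families. Of the 24 list members, 5 were higher in L1, 2 were lower and 17 did not pass, with a median of 0.09. Beside CSA1 and SNC1 they included EFR, the receptor of bacterial elongation factor, at 10.1 to 11.6 CPM in L1 and 5.21 to 8.32 CPM in L2 (log2 fold change 0.61), and RPP4, a neighbour of SNC1, at 33.6 to 44.6 CPM and 55.3 to 80.2 CPM (-0.74). RPM1, an NLR that detects bacterial effectors, was called as well, through a single line. It was high in L1-2 (13.0 and 8.89 CPM) and not in L1-1 (1.25 and 1.15 CPM). Its log2 fold change was 1.14 and became -0.45 without line L1-2.

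Genes that act downstream of defence receptors were set beside the 3.95% called among all tested genes. Before adjustment, 3 of 28 salicylic acid genes (10.7%) and 8 of 26 jasmonate genes (30.8%) were below 0.05, beside 14.7% of all tested genes. Of 28 salicylic acid genes 1 was called, CBP60g, a transcription factor of salicylic acid synthesis, at 10.5 to 21.3 CPM in L1 and a mean of 43.6 ± 13.7 CPM (SD, n = 4) in L2 (log2 fold change -1.66). The defence marker PR1 varied within lines, at 129, 636, 699 and 874 CPM in L1 and 114, 412, 175 and 180 CPM in L2, and did not pass (edgeR BH-adjusted p = 0.186). ICS1 of salicylic acid synthesis, at 28.9 to 36.7 CPM in L1 and 21.6 to 34.5 CPM in L2, did not pass either (0.393), nor did the defence regulator ACD6 (log2 fold change 0.12). Of 26 jasmonate genes 1 was higher, AOC1 of jasmonate synthesis (log2 fold change 0.94, lost in 8 of 21 settings, among them without L1-1 pool A, L1-2 pool A, L2-1 pool B or L2-2 pool B), and 1 lower, the defensin PDF1.2 (-5.22), whose L2 values had a mean of 7.67 ± 9.64 CPM (SD, n = 4). Of the other lists, auxin (36 genes), PIF and shade (17), clock (24), cell wall expansion (23), flavonoid (21), cold and drought (18), senescence (16), ethylene (19), leaf size regulators (21) and RNA-directed DNA methylation (21) had no member past the edgeR threshold. Of the 216 genes of these 10 lists, 28 (13.0%) were below 0.05 before adjustment, beside 14.7% of all tested genes. DESeq2 called 9 of them, 4 in senescence and 3 in cell wall expansion, and edgeR with the pool letter as a block called 20, 5 of them in flavonoid synthesis. Without L2-2 pool A, 3 cell wall expansion and 2 PIF and shade genes were called. PIF4, a growth regulator that follows the time of day, stood at 20.5 and 20.7 CPM in pool A of the L1 lines. In their pool B it stood at 2.89 and 2.44 CPM. These values were alike within a letter and apart between letters, and the main fit counts that gap as spread. A list without a call is thus not shown to be unchanged. The clock genes CCA1, LHY and TOC1, the auxin response gene IAA29 and the growth receptor gene ER had log2 fold changes of 0.01, 0.43, 0.19, 0.11 and -0.10, none past the test.

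Of 32 photosynthesis genes 3 were higher in L1, the light-harvesting genes LHCB2.1, LHCB1.3 and LHCB4.2, with log2 fold changes of 0.89, 0.64 and 0.70. LHCB2.1 pools overlapped, at 50.2 to 105 CPM in L1 and 29.8 to 51.8 CPM in L2. These calls were lost in 9, 12 and 13 of 21 alternative settings, and no gene of the list was called without L1-1 pool A, L1-2 pool A, L2-1 pool B or L2-2 pool B. Of 32 cell cycle genes only CYCD3;2 was called, a D-type cyclin, at 6.62, 6.48, 5.94 and 6.89 CPM in L1 and 11.5, 15.5, 10.3 and 15.5 CPM in L2 (log2 fold change -1.02, SE 0.18, edgeR BH-adjusted p = 0.00145). L1 pools were all below L2 pools, and the call held in every line pair. HSP22.0 of the 16 heat shock genes was higher in L1 (1.53), at no more than 0.608 CPM in any pool. Over the 434 measured members of the 18 pathway lists, 19 were higher and 9 lower, beside 1.99% and 1.96% of all tested genes. Their median was 0.08, and 96 of them were called between the parents, beside 13.5% of all tested genes.

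The marker lists of cell types and organs held 4 called genes. AG, which specifies stamens and carpels and is kept silent in leaves, stood at 0.550, 0.406, 0.548 and 0.776 CPM in L1 and 2.41, 1.85, 2.62 and 2.51 CPM in L2. All L1 pools were below all L2 pools and close to C24 at 0.617 and 0.610 CPM (log2 fold change -2.05, SE 0.23, edgeR BH-adjusted p = 1.24e-05), and AG did not pass the test between the parents. AG was the only call among 8 flower organ markers, 5 of which stayed under 1 CPM in all 8 libraries, and their summed level was 4.22 to 6.92 CPM in L1 and 6.66 to 9.71 CPM in L2. Summed root markers stood at 71.1 to 91.7 CPM in L1 and 82.6 to 89.7 CPM in L2, guard cell markers at 94.2 to 106 CPM and 98.4 to 107 CPM, and vascular markers at 336 to 426 CPM and 382 to 523 CPM. The fold change of all 9 vascular markers was negative, from -0.32 to -0.16. RHD2, an oxidase of root hair growth, was higher in L1 (2.35 to 3.66 CPM in L2, 4.40 to 5.17 CPM in L1, log2 fold change 0.69), as was the guard cell regulator FAMA (10.6 to 13.1 CPM in L2, 17.1 to 19.0 CPM in L1, 0.59). These calls were lost in 10 and 6 of 21 settings, both without L2-1 pool B or L2-2 pool B. The mesophyll call was LHCB2.1. The part of these levels in the results was not tested. No vascular or shoot meristem marker was called by edgeR, 2 of each list having an unadjusted p below 0.05, and DESeq2 called 1 vascular marker. Leaf mesophyll markers were high in all libraries, at 30900 to 35600 CPM in L1 and 31600 to 39100 CPM in L2.

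By a rule that took the 12 largest falls and rises among genes with at least 1 CPM, no overlap and a call in every line pair (155 genes, 52 higher and 103 lower), the falls were led by AT2G15160, annotated as uncharacterized. It stood at 5.78 to 7.62 CPM in L2 and at no more than 0.0366 CPM in L1. AT5G53700, an RNA-binding protein, stood at 0.262 to 0.454 CPM in L1 and 13.1 to 20.8 CPM in L2 (log2 fold change -5.68), and AT5G28350, a RIC1-like exchange factor, at 0.110 to 0.190 CPM and 9.83 to 16.8 CPM (-6.65). SBT4.12, a subtilase, stood at 0.128 to 0.169 CPM in L1 and 3.25 to 7.26 CPM in L2 (-4.99). In all 4 the L1 lines were at the Ler level, and C24 was the higher parent. AT1G66660, with RING and TRAF-like domains, and AT1G58235 were lower in L1 with Ler as the higher parent (-5.69 and -5.21). AT5G45730, AT5G48412 and AT5G48510 were the further falls, between -5.41 and -5.27.

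The largest rise was AT5G26622, a beta-galactosidase related gene, at 8.96 to 9.35 CPM in L1, 1.37 and 0.837 CPM in L2-1, and 0.104 and 0.0200 CPM in L2-2 (log2 fold change 5.12). AT5G24735, AT5G42700, AT5G43660, AT5G37150, AT5G23955 and AT5G37130 showed the same order of lines, with L1 near Ler, L2-1 below the F1 mean and L2-2 near C24. AT5G37130, of the prenylyltransferase superfamily, gives an example at 177 to 201 CPM in L1, 84.9 and 69.4 CPM in L2-1, and 24.6 and 20.9 CPM in L2-2 (2.19). The formin FH19, lower in Ler, was at 7.73 to 9.28 CPM in L1 and 0.520 to 3.51 CPM in L2 (2.45). CYP72A11, a cytochrome P450, was at 46.3 to 104 CPM in L1 and 9.76 to 24.9 CPM in L2 (2.36), AT5G54780, a Rab-GAP domain gene, at 72.3 to 90.6 CPM and 14.0 to 22.2 CPM (2.33), and AT2G21850 at 7.65 to 14.6 CPM and 1.74 to 3.34 CPM (2.13).

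Of the 1099 called genes, 771 (70.2%) were also called between Ler and C24, beside 13.5% of all tested genes (6.82% with Ler higher and 6.72% with Ler lower). Of the 199 genes called in every line pair the number was 186 (93.5%). Ler against C24 shares no library with L1 against L2, but both come from the same fit and share its estimate of spread for each gene. Higher genes of L1 were split between 197 with Ler above C24, 192 with Ler below C24 and 165 not called between the parents, and lower genes between 165, 217 and 163. To describe where lines stood, C24 was set to 0 and Ler to 1 on the linear CPM scale. In the 61 genes lower in L1 in every line pair with Ler the higher parent, the median position was -0.0012 for L1, 0.672 for L2 and 0.531 for the F1. In the 72 lower in L1 with C24 the higher parent, the medians were 0.999, 0.291 and 0.534. In the 33 higher in L1 with Ler the higher parent they were 1.09, 0.130 and 0.509, and in the 20 higher in L1 with C24 the higher parent -0.00591, 0.837 and 0.517.

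**Figure D3:**
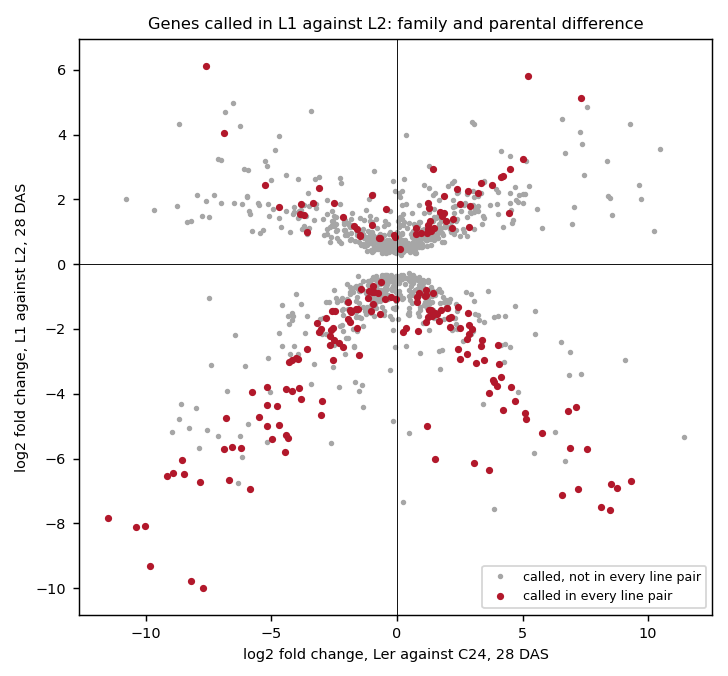
Log2 fold change of L1 against L2 (vertical) against that of Ler against C24 (horizontal) at 28 DAS for the 1099 called genes, with the 199 called in every line pair in red. Red points occupy all 4 quadrants, and 186 of them are genes also called between the parents.

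The F1 was compared with each family in contrasts that share its libraries. Since the 199 genes were chosen by the same L1 and L2 libraries, a higher share among them than among all genes is built in, and the counts are a description. Of the 199 genes, L1 differed from the F1 in 154 (77.4%, 24 higher and 130 lower) beside 1.18% of all genes (0.183% higher and 0.995% lower), and L2 in 27 (13.6%, 3 higher and 24 lower) beside 0.352% (0.0144% and 0.338%).

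In 13 of the 199 genes the parents were not called apart, and 11 of these had a mean of at least 1 CPM. AGD9, an ARF GTPase-activating protein, stood at 79.0, 84.6, 81.1 and 89.6 CPM in L1 and 53.1, 55.8, 35.9 and 39.0 CPM in L2. C24 held 41.0 and 39.6 CPM, Ler 35.5 and 39.3 CPM and the F1 39.8 and 39.3 CPM. The pools of L1 and those of L2-1 thus lay above every reference pool, and those of L2-2 did not. The log2 fold change of L1 was 0.89 against L2 (SE 0.07, edgeR BH-adjusted p = 2.25e-07) and 1.08 against the F1. That of L2-1 against L2-2 was 0.54 (edgeR BH-adjusted p = 0.0175). AT3G01345 stood at 0.865 to 1.92 CPM in L1, above the parents (0.586 to 0.747 CPM) and below the F1 (4.38 and 4.61 CPM). In L2 it was near the F1, at 5.08 to 5.49 CPM, and its log2 fold change of L1 against L2 was -2.08. The others were AG, CYCD3;2, AT5G43105 (1.7), AT5G56900 (0.48) and PUB38, a U-box protein (0.83), and AT1G58225 (-1.98), AT5G43450 (-1.55), AT5G23750, a remorin (-1.09), and AT5G61400 (-1.08). They were named after their values were seen.

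The calls were uneven along the genome, with 7.6% of tested genes called on chromosome 5, 3.6% on chromosome 1, 2.99% on chromosome 4, 2.29% on chromosome 3 and 2.25% on chromosome 2. Chromosome 5 held 39 higher and 62 lower genes of the 199, and chromosome 1 held 11 and 43. The deposited tables carry no coordinates, so genes were placed by their locus numbers. In 107 of 139 stretches of about 200 tested genes, lines could be placed between the parents from genes with a parental log2 difference above 2 (755 genes in all). On chromosome 1, the stretches from 20 to 35 with a position had both L1 lines at or below 0.22, except stretch 32 with L1-2 at 0.413, and the L2 lines between 0.237 and 0.847. In stretch 26, for example, the medians were -0.00906 for L1-1, 0.00190 for L1-2, 0.528 for L2-1, 0.626 for L2-2 and 0.453 for the F1. On chromosome 5, the stretches from 12 to 22 with a position had the L1 lines between 0.741 and 1.02, L2-1 between 0.274 and 0.579, and L2-2 at or below 0.092, except stretch 15 with L2-2 at 0.28. In stretch 22 the medians were 1.02, 0.994, 0.365 and 0.00150, with the F1 at 0.528. Stretch 9 of chromosome 5, on the other hand, had L1 near C24 (0.0273 and 0.101), L2-1 between (0.444) and L2-2 near Ler (0.995). On chromosome 4, stretch 8 had L1 near Ler (1.05 and 0.971) and L2 between (0.492 and 0.460).

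**Figure D4:**
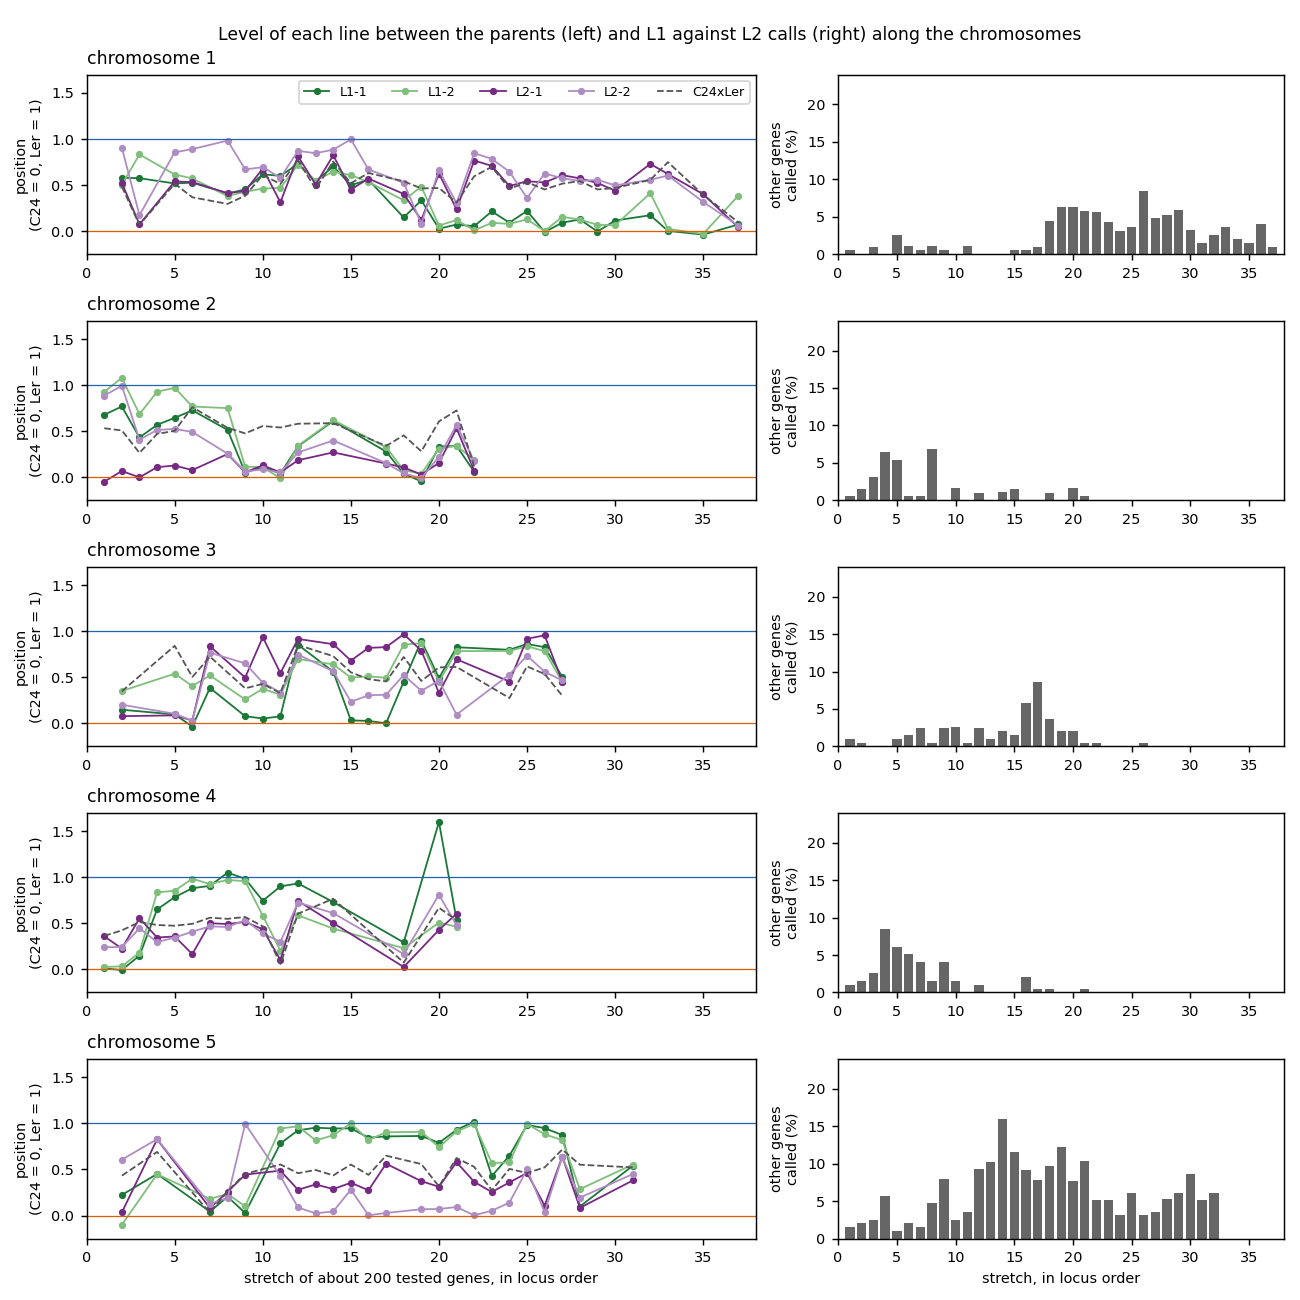
Median position of each line between C24 (0) and Ler (1) at 28 DAS per stretch of about 200 tested genes in locus order (left) and percent of the other tested genes of the stretch called between L1 and L2 (right), per chromosome. L1 lines lie near 0 over much of the second part of chromosome 1 and near 1 over the middle of chromosome 5, where bars are higher.

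Genes not used to place the lines were called more often where the families stood farther apart. With a family difference of position under 0.15 (29 stretches) 69 of 5608 other genes were called (1.23%), with 0.15 to 0.4 (44 stretches) 222 of 8485 (2.62%), and with 0.4 or more (34 stretches) 379 of 6537 (5.80%), beside 3.25% in all stretches with a position. Of the calls in the last group that were also parental, 207 of 219 (94.5%) had the direction that the positions of the stretch give, beside 348 of 403 (86.4%) in all stretches with a position. The share was 90.2% (37 of 41) with a difference under 0.15 and 72.7% (104 of 143) with 0.15 to 0.4. In this setting it thus did not follow the order of the groups. It did follow that order where parental log2 differences above 3 placed the lines, at 57.8%, 77.5% and 96.0%. The same order held with stretches of 100 genes. There the share was 93.9% with 0.4 or more, 79.0% with 0.15 to 0.4, and lower still under 0.15. The families stood at opposite parents in both lines of each in 12 of 400 genes with a parental log2 difference above 3, and all 12 were called. In 61 genes all 4 lines stood at the same parent, and 5 of these were called. The same L1 and L2 libraries gave these positions and the calls, so that both counts are largely built in. These stretches were defined after seeing the data, and the numbers are a description with no test.

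Of the 100 calls between L2-1 and L2-2, 49 lie on chromosome 5 and 25 on chromosome 2, and 97 (97.0%) were also called between the parents. Of the 54 between L1-1 and L1-2, 18 lie on chromosome 4 and 16 on chromosome 3, and 51 (94.4%) were parental. Chromosome 5 thus held the most calls both between the families and between the L2 sisters. Of the 27844 tested genes, 4361 lie on chromosome 2, 5466 on chromosome 3, 4210 on chromosome 4 and 6378 on chromosome 5. Across the 400 genes, 26.8% stood between the parents in L1-1, 38.8% in L1-2, 46.8% in L2-1 and 42.0% in L2-2, beside 71.5% in the F1.

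At 15 DAS, in other plants and in whole aerial tissue, L1 and L2 differed in 1331 of 30207 genes (4.41%, 2.01% higher and 2.4% lower in L1). Of the 1088 leaf calls tested there, 462 (42.5%) were called in the same direction and 11 in the opposite one, and 972 (89.3%) had the same sign, beside 59.0% of all 27661 genes tested at both ages. Of the genes called in every line pair, 197 were tested at 15 DAS, and 144 (73.1%) were called in the same direction and 1 in the opposite one. AGD9 stood at 90.7 to 100 CPM in L1 and 32.4 to 49.2 CPM in L2 seedlings (log2 fold change 1.24). TGG1 had the same log2 fold change of 0.86 at both ages, SNC1 had -1.54 and CYCD3;2 -0.67 at 15 DAS.

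The difference between ages was itself tested, in a model of both ages, and 202 of 30088 genes passed (0.671%), 77 more positive at 28 DAS (0.256%) and 125 more negative (0.415%). FLM had a log2 fold change of -3.45 at 15 DAS and -6.15 at 28 DAS, a difference of -2.69 (edgeR BH-adjusted p = 0.00165). SBT4.12 had -0.95 in seedlings and -4.99 in leaves, a difference of -4.04 (edgeR BH-adjusted p = 7.01e-05). Both genes were named for large falls at 28 DAS, and the same libraries enter this test. For AG, at -0.57 and -2.05, the difference did not pass (edgeR BH-adjusted p = 0.0777).

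**Figure D5:**
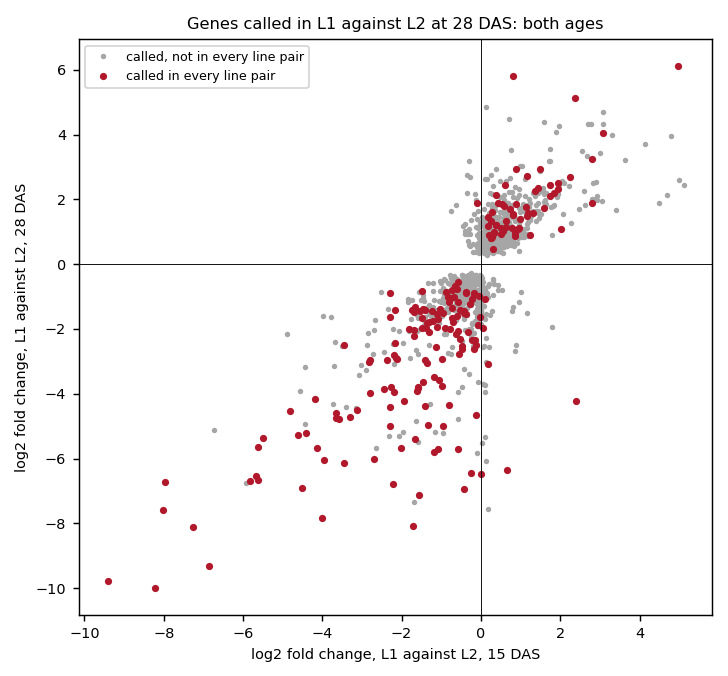
Log2 fold change of L1 against L2 at 28 DAS (vertical) against that at 15 DAS (horizontal) for the genes called at 28 DAS, with those called in every line pair in red. Most points lie in the lower left and upper right quadrants, 972 of the 1088 tested at both ages having the same sign.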

How the data were processed

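Reads were checked with FastQC and mapped to TAIR10, per the submitters' processing notes, and the deposited tables hold raw counts per gene made by the authors (33321 gene rows, 32565 of them in the RefSeq TAIR10.1 gene table). Which programs mapped and counted the reads, and whether strand was used, is not given in the sources used here. A score, the authors' scaled and rounded counts, fills the deposited normalised tables, which served only to check column names. Each library was assigned to its line, age and pool by its title.

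Counts of the 28 libraries at 28 DAS were fitted in 1 model with edgeR 4.0.16 and limma 3.58.1 in R 4.3.3: filterByExpr by group, scaling by trimmed mean of M values (TMM), glmQLFit and two-sided quasi-likelihood F tests, BH-adjusted over 27844 genes, called below 0.05 (biological coefficient of variation 0.225). The 36 libraries at 15 DAS were fitted alike (30207 genes, 0.177). L1 against L2 weighted the 2 lines of a family equally on the log scale. The SE was the size of the log2 fold change divided by the square root of F. CPM values used TMM library sizes. The steps were tested on simulated data.

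The libraries, gene lists and genes were chosen with earlier results of these data known. Named genes were the 12 largest rises and falls that had a mean of at least 1 CPM over the 8 libraries, no overlap and a call in every line pair, up to 5 called members per list, and a fixed set of flowering, glucosinolate, immunity and growth genes. A list member that this rule also names is not reported here. Further genes are named beside them from the lists, from the resistance class and from the genes not called between the parents, after their values were seen. Alternatives were DESeq2 1.42.0, its size factors, no filter, nuclear genes only, the batch 1 libraries or the 8 libraries alone, a family term, lines summed, the pool letter as a block, and each library or line left out. Upstream sequences came from RefSeq. The combined table was not used here.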

Additional observations from a re-analysis of the deposited data

Results flagged for a closer look

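In groups of 4 libraries, a library was listed where its gap to the nearest other exceeded the critical share of the range of the group in Dixon's test, which chance does in about 1 of 20 groups. The L1-2 pool A was the highest L1 library for AT2G15160 (0.0366 CPM, the others 0 to 0.00529), PDF1.2 (0.430 CPM, the others 0.0776 to 0.131) and YUC8 (0.621 CPM, the others 0.466 to 0.477). The L1-2 pool B was the highest for CBP60g (21.3 CPM, the others 10.5 to 12.2) and RHD2 (5.17 CPM, the others 4.40 to 4.52). The L2-1 pool A was the highest L2 library for CYP72A11 (24.9 CPM, the others 9.76 to 11.9), AT5G54780 (22.2 CPM, the others 14.0 to 15.4), AOP2 (521 CPM, the others 386 to 406) and RPM1 (3.41 CPM, the others 0.970 to 1.38), and the lowest for YUC8 (0.430 CPM, the others 0.578 to 0.600).

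For 8 of the named genes the log2 fold change of L1 against L2 differed between ages by a test of the difference itself. Over all genes 0.671% passed that test. These 8 were named for large changes at 28 DAS, and the same libraries enter the test. A larger size in leaves is thus favoured by the choice, and the count is a description. It was more negative in leaves for FLM (by -2.69), AT1G66660 (-3.67, from -2.01 at 15 DAS to -5.69 at 28 DAS), AT5G45730 (-3.74, from -1.66 to -5.41) and SBT4.12 (-4.04). It was more positive in leaves for AT5G26622 (2.77, from 2.36 to 5.12), AT5G42700 (1.58, from 1.15 to 2.73), FH19 (1.85, from 0.60 to 2.45) and AT5G23955 (0.89, from 1.36 to 2.25). The tissue also differs between the ages, so that age and tissue cannot be told apart.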

How the results depend on the processing

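The count of L1 against L2 calls stayed within 1.5 times of 1099 with DESeq2 size factors (1098), no filter (1078), nuclear genes (1101), batch 1 libraries (955), the family term (1021) and without line L2-1 (915). It was 1656 with DESeq2, 551 with the 8 libraries alone, 304 with pools of a line summed, and 615, 690 and 612 without line L1-1, L1-2 or L2-2. The list calls (28) were 45, 15 and 16 under the first 3 of these and 17 without line L1-1 or L2-2. With single libraries left out, the family calls ran from 732 (without L2-2 pool B) to 1515, the list calls from 20 to 46 (without L2-2 pool A), those in every line pair from 92 (without L1-2 pool A) to 174, and the age difference from 141 to 256. The 15 DAS calls ran from 932 to 1322, the parental ones from 1876 (without C24 pool A) to 2668, and the sister calls from 17 (without L1-1 pool A) to 48 in L1 and 66 (without L2-1 pool A) to 100 in L2. Calls against the F1 ran from 199 to 274 for L1 and 29 to 96 for L2, in both cases lowest without F1 pool A. Same-lettered pools of the 4 lines deviated together to a varying degree (r of A minus B 0.0795 to 0.417). The labels do not say what a letter marks. Sister lines were closer within a letter than the pools of a line, by mean squared difference over counting noise. It was 78.8 (A) and 67.8 (B) between L1-1 and L1-2, beside 150 and 219 between their own pools. For L2-1 and L2-2 it was 74.4 and 44, beside 118 and 220. The main fit has no term for the letter, so this shared part stayed in its error. With the letter as a replicate block, 2242 family, 62 list, 317 every-pair, 6379 parental, 518 L1 against F1 and 364 age calls were made. Of genes with families at opposite parents (12), 23, 7 and 40 were found with parental log2 differences above 2 or 4 or positions of 0.35 and 0.65, and bins of 100 genes at opposite parents numbered 0, or 3 with the latter. Stretches with a family difference of 0.4 or more had 6.81% of other genes called where parental log2 differences above 3 placed the lines. RPM1 (-0.45 without line L1-2) changed sign. The 12 largest falls were called under all 21 settings. Of the largest rises, those other than AT5G54780 were not called with lines summed, and CHS3 was also not called with the family term. The cause was not tested.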
